A study of Schizosaccharomyces pombe with 4 samples.

Results

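The mug genes are fission yeast (Schizosaccharomyces pombe) genes named for being meiotically upregulated. They were taken here as every gene whose symbol in the array's annotation is mug followed by digits, with 1 exception left out by the rule. This gave 114 of the 2899 named genes measured, each read by 1 probe set. A RefSeq gene table now gives 24 of them another name, which is used below (mug1 is jnm1, mug180 is say1). Transcripts were measured in pht1 deletion diploids at 3 h and 1.5 h after nitrogen withdrawal, and in wild-type diploids at the same times, with 1 array for each of the 4 groups. All cells were h+/h- diploids with the ade6-210/216, his5-303/+ and leu1-32/+ markers. The deletion cells were in addition homozygous for ura4-D18 and for pht1D::ura4+, in which the ura4+ marker takes the place of pht1, the H2A.Z gene. H2A.Z is a variant of histone H2A that the SWR1 complex places in chromatin.

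In this yeast, nitrogen withdrawal induces the transcription factor Ste11, and the RNA-binding protein Mei2 then commits diploids to meiosis. Genes of the premeiotic S phase and recombination are expressed first, and the forkhead factor Mei4 turns on a later set for the meiotic divisions and spore formation. In mitotic growth, many meiotic transcripts are destroyed through the RNA-binding protein Mmi1. The mug genes were named from expression surveys of meiosis and share no sequence family, and many have no known function. They hold members from recombination to spore formation, and also genes of general cell functions.

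Each value is a log2 level from RMA (robust multi-array average), which equalizes the arrays, so each level is set against the rest of the same array. A difference of 1 log2 unit is 2-fold. Differences are between 1 array and 1 array, with no replicate check and no p-value. The pht1 probe set read 7.36 at 3 h and 7.37 at 1.5 h in the deletion, against 12.86 and 12.70 in wild type. The level 1 log2 unit above these deletion values, 8.37, is called the dim level, and a difference whose lower array lies under it is given as at least its size. A floor was set at the 25th percentile of each array, between 10.08 and 10.13. The spread of a difference between 2 arrays, taken from the difference of differences in genes that passed the floor on 2 or more arrays, was 0.23 log2 units. RNA came from whole cultures, in which fewer cells in a stage and less RNA per cell cannot be told apart.

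No array of growing cells was analysed here, so the name of the set could be checked against the interval from 1.5 h to 3 h alone. Most mug genes read low. In the deletion, 62 of the 114 lay above the floor at 3 h and 49 at 1.5 h, and in wild type 52 and 43 did. These are 54.4% and 43.0% in the deletion and 45.6% and 37.7% in wild type, where 77.3% to 78.3% of all named genes lay above the floor. Above it on all 4 arrays were 41 mug genes, on some arrays 23 and on none 50. Brightness also depends on the probes, so levels are compared between arrays and not between genes. The median mug level was 10.31 at 3 h and 9.85 at 1.5 h in the deletion, against 9.84 and 9.47 in wild type.

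**Figure D1:**
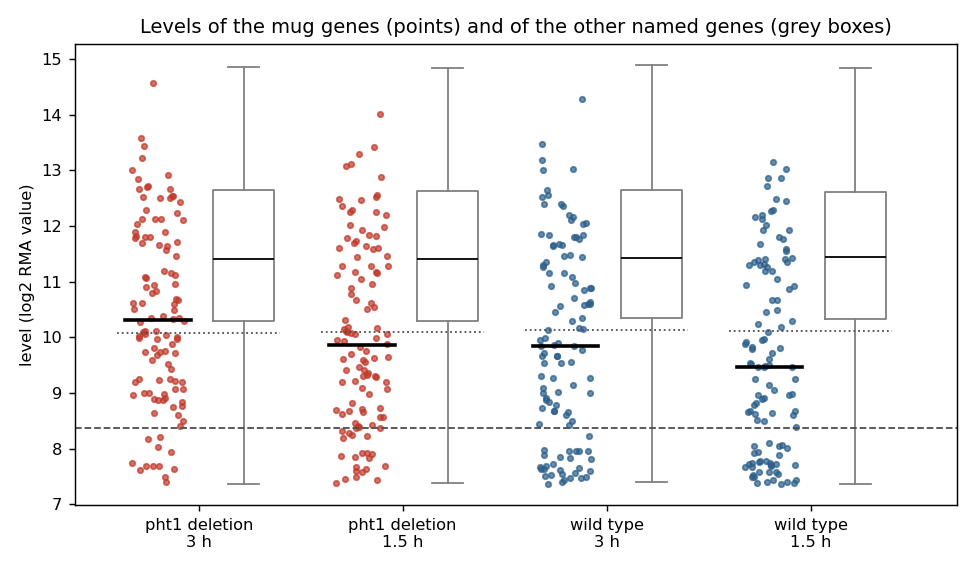
Log2 RMA levels (y axis) on the 4 arrays (x axis). Points are the 114 mug genes with their median as a black bar, grey boxes are the other named genes (median, quartiles and whiskers to 1.5 times the interquartile range), dotted lines are the floors and the dashed line is the dim level of 8.37. The mug median lies above the floor on the deletion array at 3 h alone, at 10.31.

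The plot of levels by array shows more mug genes near the bottom of the wild-type arrays. Under the dim level were 12 mug genes at 3 h and 21 at 1.5 h in the deletion, against 28 and 34 in wild type. Of the 28 mug genes dim on both wild-type arrays, 16 were above the dim level on at least 1 deletion array and 8 on both. The 12 mug genes dim on both deletion arrays were dim in wild type too, among them fzr3, which encodes a meiotic activator of the anaphase-promoting complex, and mug27, the gene of a meiotic kinase of forespore membrane formation. Over all named genes, 44 of 101 dim on both wild-type arrays were above the level on a deletion array, and 21 of 78 dim on both deletion arrays were above it in wild type.

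At 1.5 h, mug genes were more often higher than lower in the deletion. Without the floor, 13 of 114 were at least 2-fold higher, or 11.4%, against 3.04% of all named genes, and 1 was at least 2-fold lower, against 0.793% of them. The median difference was 0.25, against -0.031 over all named genes, and 83 mug genes were higher by any amount (72.8%, against 44.2%). With the floor, 51 mug genes remained, of which 6 passed 2-fold upward (2.57% of named genes above the floor did) and 1 lower (0.901%), but 8 of the 51 passed the floor through the deletion array alone, so that these members had to be higher.

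The highest of those above the floor was mug14, of the adducin family. It read 14.01 in the deletion and 11.40 in wild type, a difference of 2.61. Next came mug4, at 11.18 in the deletion and 9.15 in wild type (2.03), and mug8, at 11.28 and 9.50 (1.78). In these genes the genotypes were nearer to each other at 3 h, where the differences were 0.29 for mug14, 0.83 for mug4 and 0.37 for mug8. mug15 read 10.55 in the deletion and 8.96 in wild type at 1.5 h (1.59). mug110 read 11.17 and 9.46 (1.71), and mug109 11.28 and 10.10 (1.19). The differences of mug110 and mug109 were larger at 3 h. Below the floor, the differences were at least 2.16 for mug97, at least 1.89 for mug137, at least 1.43 for mug146, 1.18 for mug9, 1.13 for mug10, at least 1.09 for mug37 and at least 1.06 for mug45. The wild-type level of mug9 was 8.65 and that of mug10 8.62, so both lay between the dim level and the floor.

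The lower end at 1.5 h held mug89 and then much smaller values. mug89 encodes a protein of the CDC50 family, which serves lipid flippases, and read 10.32 in the deletion and 11.35 in wild type, a difference of -1.03. The next lowest were igo1, the gene of an endosulfine that inhibits the phosphatase PP2A (-0.33), mug70 (-0.31), mug84 (-0.27), mug184 (-0.26, below the floor) and mug113 (-0.25). Apart from mug89, these exceeded the spread of 0.23 by little.

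At 3 h, more mug genes passed 2-fold. Without the floor, 20 of 114 were at least 2-fold higher in the deletion, or 17.5%, against 2.41% of all named genes, and none was 2-fold lower, against 0.828%. Of these 20, 13 were among the 28 dim on both wild-type arrays. Over all named genes, 34 of the 101 dim on both wild-type arrays were 2-fold higher at 3 h. Such dim genes made up 24.6% of the mug genes and 3.48% of all named genes. The part of this make-up in the shares was not tested. The median difference of the 114 mug genes was 0.32, against -0.014 over all named genes, and 100 of 114 were higher by any amount (87.7%, against 46.3%). With the floor, 63 remained, of which 8 passed 2-fold upward (1.88% of named genes above the floor) and none lower (0.856%), with 11 of the 63 above it through the deletion array alone.

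The highest at 3 h were mug97 and mug137. mug97, also known as meu33, read 11.15 in the deletion and 7.89 in wild type, at least 3.26 higher. mug137 read 10.67 in the deletion and 7.44 in wild type, at least 3.24 higher. Both wild-type values were near the level of the deleted pht1. mug110 read 12.23 in the deletion and 9.84 in wild type (2.40). mug130 read 10.35 and 8.67 (1.68), and mug109 11.82 and 10.29 (1.53). mug125 read 10.48 and 9.02 (1.46), mug15 12.13 and 10.98 (1.16), and mug94 10.69 and 9.66 (1.03). For these 6, wild type was above the dim level, so the sizes are measured ones. mug135 (0.96) and mug4 (0.83) were just under 2-fold. At the lower end, mug89 was at -0.97, jnm1 at -0.43 and nur1, of a nuclear rim protein, at -0.36, and no other mug gene was lower by more than the spread.

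Below the floor, a group of faint genes was also higher in the deletion at 3 h. The differences were at least 2.11 for mug93, 2.04 for mug146, 1.43 for mug126 and 1.37 for mug95. They were at least 1.32 for mug28, the gene of a meiosis-specific RNA-binding protein needed for normal spores, and at least 1.20 for mug24, also of an RNA-binding protein. The remaining ones were mug98, mug62, mug103, mug112 and the galactosyltransferase gene otg2, between 1.14 and 1.30 or more, and say1, of a sterol deacetylase family, at 1.06. Wild-type levels of most of these genes differed little with time, apart from mug24 (0.54) and say1 (-0.29), whose differences between 3 h and 1.5 h exceeded the spread. Except in say1, these wild-type levels lay under the dim level, where a flat level cannot be told from no signal. mug93 read 9.73 at 3 h and 8.37 at 1.5 h in the deletion, against 7.62 and 7.58 in wild type. mug28 read 9.0 and 7.86 in the deletion, against 7.68 and 7.52 in wild type.

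**Figure D2:**
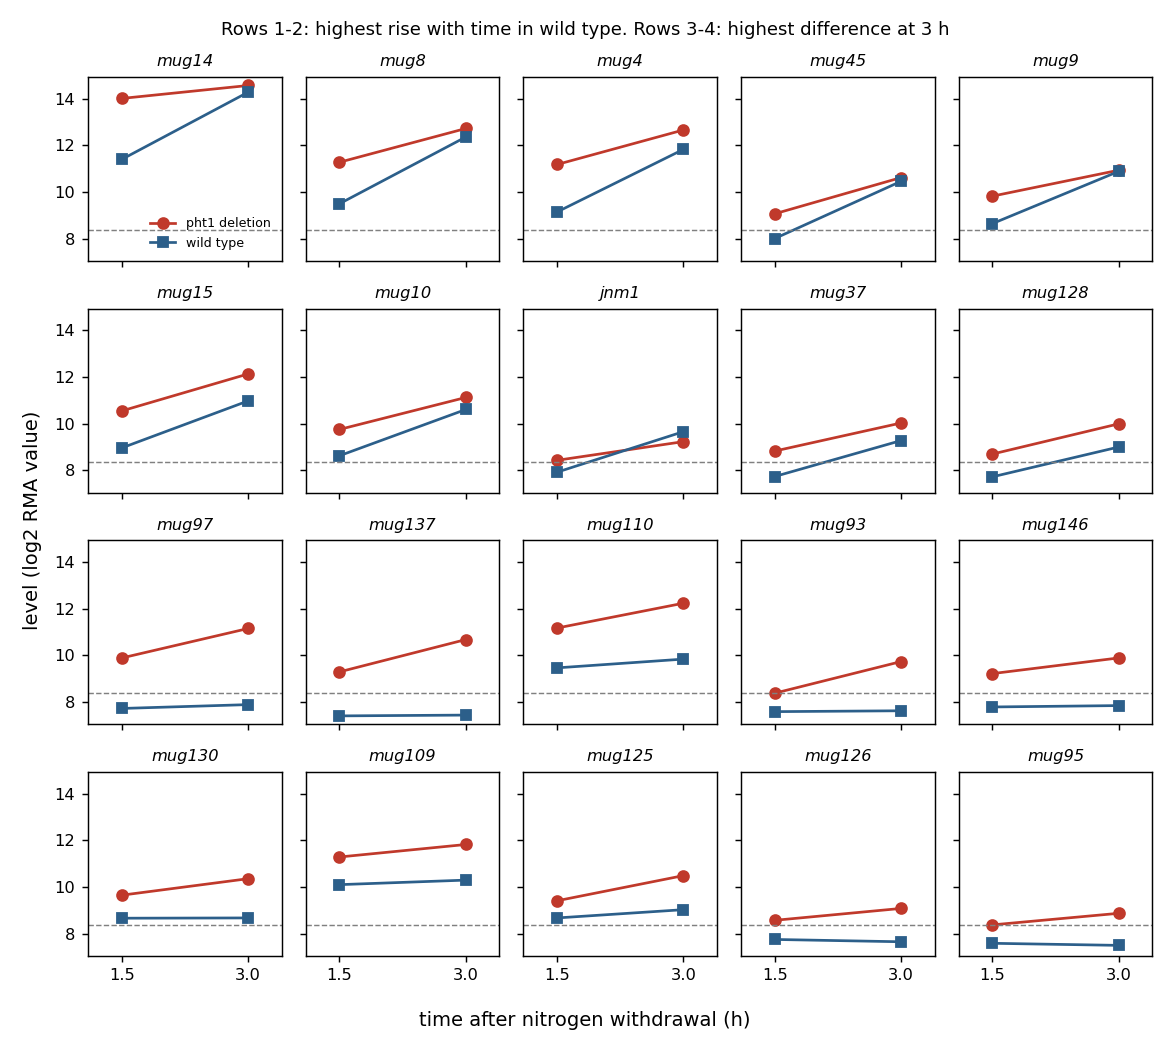
Log2 RMA level (y axis) against hours after nitrogen withdrawal (x axis) for 20 mug genes, 1 array a point, circles for the pht1 deletion, squares for wild type, dashed line at the dim level. The upper 10 genes have the largest difference between 3 h and 1.5 h in wild type, from 2.88 for mug14 down to 1.28 for mug128, and the lower 10 the largest difference between the genotypes at 3 h. The wild-type lines climb in the upper panels and less in the lower ones, where mug110 (0.38) and mug125 (0.35) have the largest wild-type differences with time.

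In wild type, few mug genes were much higher at 3 h than at 1.5 h. Without the floor, 10 of 114 were at least 2-fold higher, or 8.77%, against 2.9% of all named genes, and none was 2-fold lower, against 0.345%. The median was 0.059, against -0.016 over all named genes, and 78 were higher by any amount (45.7% of all named genes were). mug14 read 14.28 at 3 h and 11.40 at 1.5 h, a difference of 2.88. mug8 differed by 2.86, mug4 by 2.68, mug9 by 2.24, mug15 by 2.02 and mug10 by 1.98. The others were mug45 (at least 2.45), jnm1, which encodes a subunit of dynactin, the partner of the motor dynein (at least 1.74), mug37 (at least 1.54) and mug128 (at least 1.28). After these 10 the next values were at least 0.95 for mug5 and 0.66 for pth4, of the peptidyl-tRNA hydrolase family. The values thus ran on below 2-fold without a clear gap. Of the 53 mug genes above the floor, 7 were 2-fold higher (2.96% of named genes above the floor) and none lower (0.386%), with 10 of the 53 above it through the 3 h array alone. The lowest were tcb2, a tricalbin gene of contacts between the endoplasmic reticulum and the plasma membrane (-0.52), mug161 (-0.50), mug35 (-0.38) and mug166 (-0.37).

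In the deletion, small differences with time were spread over more mug genes. Without the floor, 15 of 114 were at least 2-fold higher at 3 h, or 13.2%, against 2.41% of all named genes, and none was 2-fold lower, against 0.414%. The median was 0.29, against -0.0015 over all named genes, and 101 were higher by any amount (88.6%, against 49.9%). Of the 62 above the floor, 10 were 2-fold higher (2.36% of named genes above the floor) and none lower (0.473%), with 13 of the 62 above it through the 3 h array alone. The median of these 62 was 0.20, near the 0.19 of those above the floor in wild type, and 87.1% against 69.8% were higher by any amount. More mug genes lay under the dim level in wild type, where a flat level cannot be told from no signal. mug15 read 12.13 at 3 h and 10.55 at 1.5 h (1.59), and mug45 10.62 and 9.07 (1.55). mug4 was at 1.48, mug8 at 1.45, mug137 at 1.39, mug10 at 1.37, mug93 at 1.36, mug128 at 1.30, mug97 at 1.26, mug37 at 1.20, mug28 at 1.14 or more, mug9 at 1.11, mug125 at 1.08, mug110 at 1.06 and mug24 at 1.04. Those 2-fold higher in both genotypes were mug4, mug8, mug9, mug10, mug15, mug37, mug45 and mug128, 8 genes, against 1.52% of all named genes. The other 7 were higher with time in the deletion and by 0.54 or less in wild type. mug14 and jnm1 passed 2-fold in wild type alone, with 0.55 and 0.80 in the deletion. mug14 was already at 14.01 in the deletion at 1.5 h, and at 14.57 at 3 h. The lowest values with time in the deletion were -0.29 for mug165, below the floor, and -0.21 for tcb2.

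**Figure D3:**
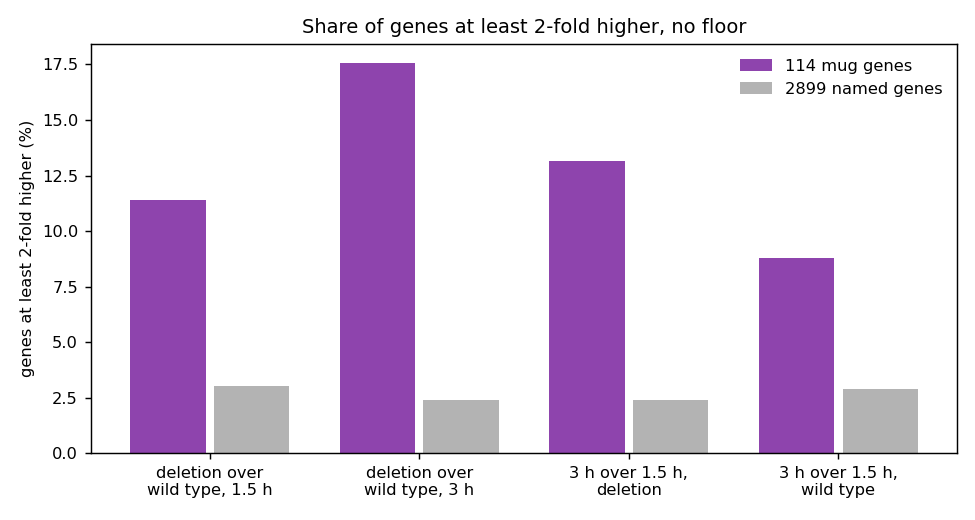
Share of genes at least 2-fold higher (y axis, percent) in the 4 comparisons (x axis), without the floor, for the 114 mug genes and for all 2899 named genes. The mug shares run from 8.77% to 17.5% and those of all named genes from 2.41% to 3.04%.

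The share of mug genes 2-fold higher was thus above that of all named genes in each of the 4 comparisons. With the floor and a 2-fold difference in either comparison of a kind, 8 mug genes were higher both with time and with the deletion (mug4, mug8, mug14, mug15, mug97, mug110, mug125 and mug137), against 1.9% of all named genes. 3 were higher with time alone (mug9, mug10 and mug45, against 1.28%), 3 with the deletion alone (mug94, mug109 and mug130, against 0.931%), and 100 with neither (95.9%). The comparisons share arrays, the wild-type array at 1.5 h among them, so their overlap is only counted here. The floor asks only that the higher array of a pair pass, and in most of these 2-fold pairs the lower array lay below it. Both arrays lay above it for mug14 at 1.5 h and with time in wild type. They also did for mug15 and mug109 at 3 h, and for mug4, mug8, mug15 and mug110 with time in the deletion. The counts with the floor are thus no support for a difference. Without the floor, the counts were 15 with both, 2 with time alone (jnm1 and mug128), 12 with the deletion alone and 85 with neither. All named genes gave 2.69%, 1.1%, 1.48% and 94.7%.

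The average over both genotypes and the average over both times are orthogonal contrasts of the 4 arrays. Every array enters both averages, so a low wild-type array at 1.5 h raises both. Passing in both is therefore only counted here too. In mug14, that array read 11.40, against 14.01 to 14.57 on the other arrays. With the floor, 4 mug genes passed 2-fold in both averages, against 0.897% of all named genes. Neither average passed in 101 (96.9%). Those with both were mug4 (2.08 with time, 1.43 with the deletion), mug8 (2.15 and 1.07), mug14 (1.72 and 1.45) and mug15 (1.80 and 1.37). In the time average alone 3 passed (1.17%), mug45 at 2.0, mug9 at 1.68 and mug10 at 1.68. In the deletion average alone 6 passed (1.07%), mug97 at 2.71 or more, mug137 at 2.56 or more, mug110 at 2.05, mug109 at 1.36, mug130 at 1.33 and mug125 at 1.1. These 6 were higher with time by 0.36 to 0.72 on average. Without the floor, the same 4 genes passed in both averages, 6 in the time average alone (1.45%), 13 in the deletion average alone (1.62%) and 91 in neither (96%).

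**Figure D4:**
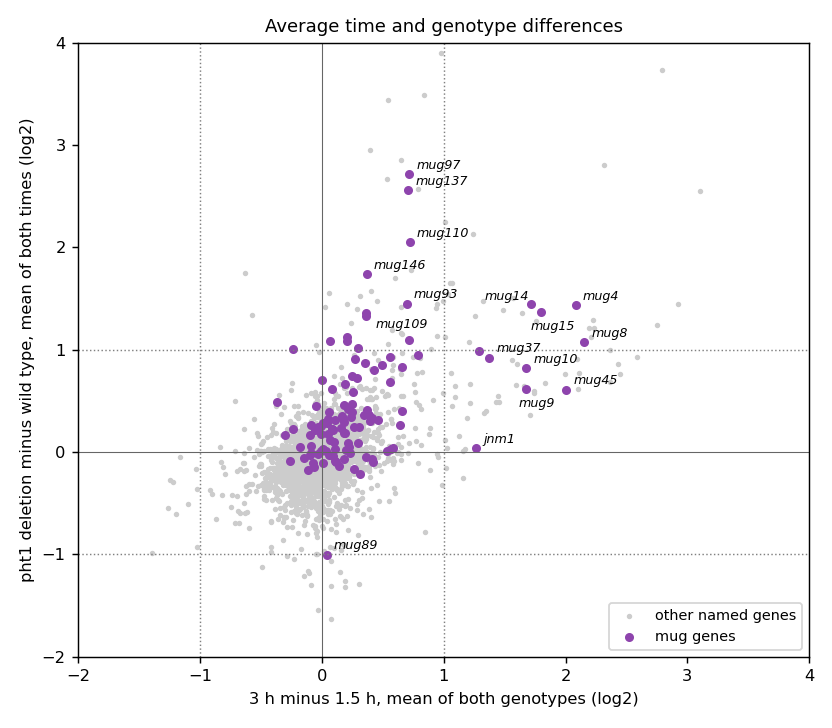
Average difference with time (x axis, 3 h minus 1.5 h, mean of both genotypes, log2) against the average difference with genotype (y axis, pht1 deletion minus wild type, mean of both times, log2). Purple points are mug genes and grey points the other named genes, of which 5 lie outside the axes; dotted lines mark 2-fold. mug97 and mug137 stand high with an average time difference of 0.71. In the deletion alone theirs were 1.26 and 1.39, and their wild-type values lie under the dim level. mug4, mug8, mug14 and mug15 are past 2-fold on both axes.

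The genotype difference changed with time in opposite ways in these genes. Of the 10 mug genes 2-fold higher at 3 h than at 1.5 h in wild type, 9 had a smaller genotype difference at 3 h than at 1.5 h, with medians of 0.44 at 3 h and 1.15 at 1.5 h. These values share the wild-type arrays that chose the genes. The most negative differences of differences (3 h minus 1.5 h) were -2.33 for mug14, -1.41 for mug8, -1.20 for mug4, -1.13 for mug9 and -0.94 for jnm1. The most positive were 1.35 for mug137, 1.32 for mug93, 1.1 for mug97, 0.98 for mug28 and 0.88 for mug62, all with wild type under the dim level. Over all 114 mug genes, 80 had the larger genotype difference at 3 h and 34 at 1.5 h, and the median difference of differences was 0.16. This count was not taken over all named genes, so it is no result about the set. The median genotype difference of all named genes was -0.014 at 3 h and -0.031 at 1.5 h. jnm1 stood alone in direction among the genes that passed 2-fold. It read 9.23 in the deletion and 9.66 in wild type at 3 h (-0.43), and 8.43 and 7.92 at 1.5 h (0.51 or more).

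The differences at the 2 times share no array. Across the 114 mug genes, which are not independent replicates, they correlated with r = 0.68 and rho = 0.69, beside r = 0.76 and rho = 0.67 over all named genes. Both times had mug15, mug97, mug109, mug110, mug137 and mug146 at least 2-fold higher, 6 genes, against 1.28% of all named genes. At 3 h alone there were 14 and at 1.5 h alone 7. Of all named genes, 2.41% were 2-fold higher at 3 h and 3.04% at 1.5 h, those higher at both times included. The differences with time in the 2 genotypes also share no array and correlated with r = 0.66 and rho = 0.59 over the mug genes, beside r = 0.69 and rho = 0.61 over all named genes.

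**Figure D5:**
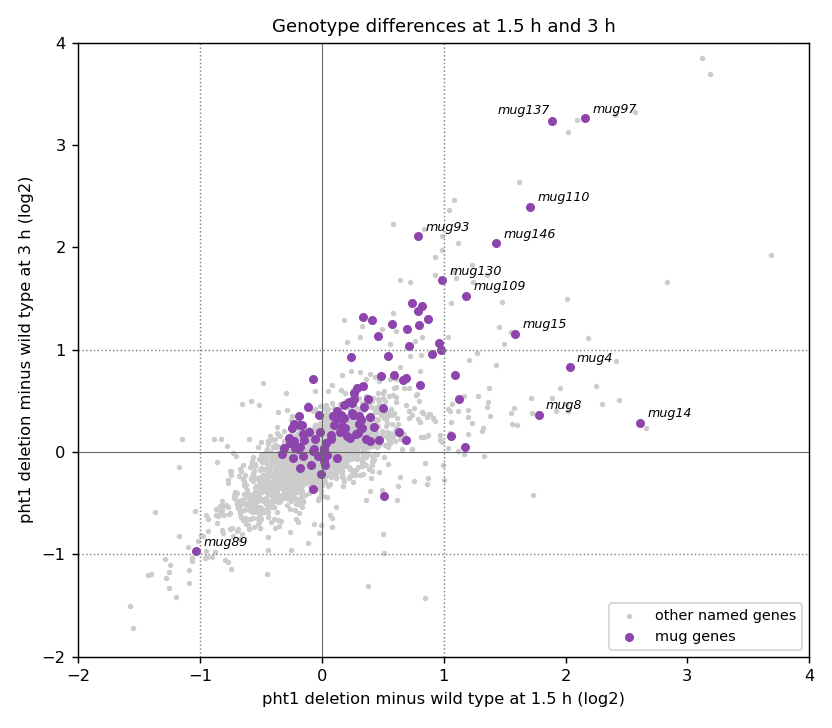
pht1 deletion minus wild type at 1.5 h (x axis, log2) against the same at 3 h (y axis, log2). Purple points are mug genes and grey points the other named genes, of which 8 lie outside the axes; dotted lines mark 2-fold. mug14, mug4 and mug8 lie to the right with small values at 3 h, mug97, mug137 and mug93 lie high, and mug89 is the lowest mug gene at both times.

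A limma fit with genotype and time as additive terms asked which genes differed alike at both times, over 2314 genes that passed the floor on 2 or more arrays. It leaves each gene 1 residual degree of freedom, which any interaction enters too. Its p-values rest on how these 4 arrays vary, with no repeat culture behind them. Of the 54 mug genes fitted, 5 rose in the deletion (0.951% of all genes fitted did) and 1 fell (1.17%). Those that rose were mug110 (2.05, SE 0.19, limma adjusted p = 0.0335), mug15 (1.37, SE 0.14, limma adjusted p = 0.0367), mug109 (1.36, SE 0.12, limma adjusted p = 0.0323), mug135 (0.93, SE 0.074, limma adjusted p = 0.0315) and oxr1, the gene of an oxidation resistance protein (0.69, SE 0.074, limma adjusted p = 0.043), each higher at both times. The one that fell was mug89 (-1.0, SE 0.081, limma adjusted p = 0.0315), lower at both times. mug110 entered the fit through the 2 deletion arrays alone, since both wild-type arrays read under the floor, so its call is no support for a difference. mug135 read 12.43 in the deletion and 11.47 in wild type at 3 h, and 11.85 and 10.94 at 1.5 h. mug89 read 10.39 and 11.36 at 3 h, close to its values at 1.5 h. With the floor at the array median, no mug gene of 34 fitted was called by limma. Of all 1611 genes fitted there, 1 was called higher (0.0621%) and 0 lower, so this is no result about the mug genes. At an unadjusted p under 0.05 in limma, 17 mug genes were higher and 1 lower, among 149 and 224 of the 1611. With variances not following intensity, mug135 and mug89 were the mug genes called (0.475% of all genes fitted higher and 0.864% lower).

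No gene was called for time by limma in this fit (0% of 2314), with 22 mug genes higher and 2 lower at an unadjusted p under 0.05, among 263 and 264 genes in all. The lowest adjusted p of a mug gene for time was 0.0691 by limma, that of mug15 (1.80, SE 0.14) and of mug10 (1.68, SE 0.19). Fitted without the floor, 5 mug genes of 114 were called higher with time (mug10, mug15, mug37, mug45 and mug128, against 1.86% of all genes fitted). After quantile normalization 8 of 54 were, against 3.2% (mug4, mug8, mug9, mug10, mug15, mug45, mug135 and oxr1). In the deposited values, mug9, mug10 and mug45 read above the floor on the 2 arrays at 3 h alone. Their results for time in fits with the floor are thus no support for a difference.

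A role was stated here for 32 members and not for 82. Without the floor, 5 of the 32 and 22 of the 82 were at least 2-fold higher in the deletion at 1.5 h or 3 h, against 4.17% of all named genes. Among 8 genes of membrane traffic and autophagy, none was 2-fold higher at either time and mug89 was lower. Here atg101, of the complex that starts autophagy, was at 0.34 at 3 h and 0.12 at 1.5 h, atg1802 at 0.16 and 0.21, the gene of the ER-phagy receptor epr1 at 0.28 and -0.23, and the sorting nexin gene snx41 at 0.05 and -0.18. mug33, which acts in exocytosis, was at 0.31 and 0.32, snd2, of protein targeting to the endoplasmic reticulum, at 0.45 and 0.34, and tcb2 at 0.65 and 0.34.

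Of 7 genes of chromatin, cell cycle and signalling, none was past 2-fold in any comparison. Of all named genes, 2.41% to 3.04% were 2-fold higher in a comparison and 0.345% to 0.828% lower. Counts in role groups this small are therefore no result about the groups. rtt106, of a histone chaperone, was at 0.12 at 3 h and 0.36 at 1.5 h, nur1 at -0.36 and -0.07, the cyclin gene clg1 at 0.35 and 0.09 and teb1, of a Myb-like DNA-binding protein, at 0.18 and -0.15. Of 6 genes of RNA and translation, mug24 and mug28 were 2-fold higher at 3 h and below the floor, while rqt2, of a helicase that clears stalled ribosomes, was at 0.41 at 3 h and 0.12 at 1.5 h and dph6, of diphthamide synthesis, at 0.48 and 0.23. Of 8 genes of metabolism, sugar and protein modification, otg2 and say1 passed 2-fold at 3 h below the floor. egt1, of ergothioneine synthesis, was at 0.10 and 0.39. In the cytoskeleton group, mug14 alone of 3 was 2-fold higher in the deletion at 1.5 h, and mmb1, which tethers mitochondria to microtubules, was at 0.35 at 3 h and 0.31 at 1.5 h.

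Other meiotic genes gave mixed values. Of 26 genes whose array symbol is meu or mde and digits, 16 passed 2-fold upward in the deletion at 3 h without the floor and 15 at 1.5 h, with medians of 1.58 and 1.08. Over all named genes, 2.41% passed at 3 h and 3.04% at 1.5 h. No test of the difference between these genes and the mug genes was made. Of 18 regulators of meiotic genes, 3 passed 2-fold upward at 3 h and 3 at 1.5 h without the floor, beside the same 2.41% and 3.04%. None above the floor was 2-fold lower, where 0.856% of named genes above it were at 3 h and 0.901% at 1.5 h. At 3 h the higher ones were mei4 (1.13), the gene of the copper-binding regulator cuf2 (at least 1.97) and atf21, of a bZIP factor of spore formation (at least 1.66). At 1.5 h they were pat1, the kinase gene that holds back meiosis (1.37), rep1, of an activator of S phase genes (1.35), and mei4 (at least 1.03). mei4 read 10.45 at 3 h and 9.20 at 1.5 h in the deletion, against 9.32 and 8.16 in wild type. In wild type, cuf2 read 7.59 and 7.63 and atf21 7.62 and 7.51 at 3 h and 1.5 h. These values lie under the dim level, where a flat level cannot be told from no signal.

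Markers of stage differed between the arrays along with the mug genes. The mean log2 level of 10 genes of meiosis in progress was 12.17 at 3 h and 10.96 at 1.5 h in the deletion, against 11.74 and 9.52 in wild type. That of 10 measured genes of mitotic division and septation was 10.25 and 10.77 in the deletion, against 10.82 and 11.18 in wild type. At 1.5 h, 3 of 6 meiosis genes above the floor were 2-fold higher in the deletion and 1 of 9 division genes 2-fold lower. Of all named genes above the floor, 2.57% were higher and 0.901% lower. At 3 h the counts were 2 of 9 higher and 1 of 7 lower, beside 1.88% and 0.856%. The 3 meiosis genes at 1.5 h (crs1, dmc1 and spo5) passed the floor through the deletion array alone, so they had to be higher. So did mei4 at 3 h, while mes1 was above it in both genotypes. The division gene mid1 passed at 3 h through the wild-type array alone. These counts are thus no support for a difference in stage. The part of stage or culture in the mug differences was not tested.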

How the data were processed

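The deposited values are log2 levels, 1 for each array and probe set. RMA produced them, per the submitters' processing notes; the sources used here give neither its version nor which arrays it normalized jointly. Of 4999 probe sets, 2917 had 1 symbol, 20 several and 2062 were unnamed in the array's annotation. Symbols were updated by gene identifier from a RefSeq table (ASM294v3), which matched all 114 members and was used for names and gene order alone. Of several probe sets of a gene, the one with the highest mean was taken. limma 3.58.1 in R 4.3.3 fitted genotype and time as additive terms, with eBayes variances following intensity and Benjamini-Hochberg adjustment at 0.05 over all genes fitted. The fit was tested on simulated data. The labels do not tell whether 1 culture of each genotype was sampled at both times. The number of arrays limits the precision.

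The members, lists and tests were chosen with earlier results of these data known. Named mug genes were those 2-fold higher in the deletion, those called by limma, the ends of each comparison and of the difference of differences, the brightest and those with a stated role; genes beyond this were named after their values were seen. Roles came from general knowledge, since no product text was at hand. Promoter motifs and sequences were planned and are not analysed here. Alternatives covered the floor, fold threshold, scaling, probe sets, class definition and variance model. Other steps ran in Python 3.11.15 with matplotlib 3.10.9 for figures, pandas 2.3.3, and statsmodels 0.14.6 for lowess.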

Additional observations from a re-analysis of the deposited data

Results flagged for a closer look

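A few genes differed one way in 1 setting and the opposite way in the other, each by more than the spread between 2 arrays of 0.23. With 1 array a group, none of these opposite differences was tested. How many of all named genes did so was not counted. Between the genotypes, jnm1 was at -0.43 at 3 h and 0.51 or more at 1.5 h, mug113 at 0.24 and -0.25, and epr1 at 0.28 and -0.23. Both jnm1 and epr1 read below the floor on every array. With time, iph1 was at 0.44 in the deletion and -0.35 in wild type.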

How the results depend on the processing

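No paired analysis was possible because each group holds 1 array, and leaving out an array would leave its group empty. Of 160 values that an alternative could move, 42 moved by more than 1.5 times and 118 did not, or, for medians, kept within the spread. Without the floor, or with a floor at the dim level (chosen after seeing the data), 20 mug genes were 2-fold higher in the deletion at 3 h and 13 at 1.5 h, with 15 higher with both time and deletion and 12 with the deletion alone. With the floor at the array median, 3 were higher at 3 h and 3 at 1.5 h, 4 were higher with time in the deletion and 3 in wild type, with 4 for both, 1 for time alone and 1 for the deletion alone. With a floor on the mean of the 4 arrays (also chosen after seeing the data), 3 were higher in the deletion at 3 h, 4 with time in the deletion and 4 in wild type, with 5 for both, 0 for time alone and 1 for the deletion alone. At 1.5-fold, 13 were higher in the deletion at 3 h and 10 at 1.5 h, 1 was lower at 3 h, 5 were higher with time alone and 6 with the deletion alone. At 3-fold, 4 were higher at 3 h, 1 with time in the deletion and 4 with both, and 0 were lower at 1.5 h. After quantile normalization or lowess, 0 were 2-fold lower at 1.5 h. Classed by averages, 4 were higher with both and 6 with the deletion alone; classed by passing both comparisons of a kind, 1 with both and 5 with time alone. Shares over all named genes were not taken for the other floors, fold thresholds and scalings or for passing both comparisons. Those counts are no result about the set. In the limma fit, mug genes called higher in the deletion numbered 14 without the floor (1.83% of all genes fitted) and 1 with variances not following intensity (0.475%). With the floor at the array median, 0 were called higher (0.0621%) and 0 lower (0%). Those called higher with time numbered 5 without the floor (1.86%) and 8 after quantile normalization (3.2%). The causes were not tested, beyond the fewer or more genes that each floor lets through. Centring on the gene median moved no count of 2-fold differences by more than 1.5 times. Averaging probe sets could not move any, since each mug gene has 1. Faint probe sets limit the sizes, since 28 mug genes were dim on both wild-type arrays.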

Other observations

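Mug genes with small differences in every comparison were found at all brightness levels. All 4 differences of a gene lay within the spread of 0.23 for 16 mug genes, against 1095 of 2899 named genes. They included the bright mug157, at -0.09 at 3 h and 0.01 at 1.5 h between the genotypes, mug121 and mug182, and the dim mug116 and mug177. Several of the 16, mug116 and mug177 among them, read under the dim level on every array. In such probe sets a steady level cannot be told from no signal. Among the brightest members, mug143 was at 0.25 at 3 h and 0.43 at 1.5 h between the genotypes, mug108 at 0.20 and 0.63, mug168 at 0.13 and 0.23, mug147 at 0.33 and 0.18, mug64 at -0.06 and -0.24 and mug161 at 0.37 and -0.03.

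Immediate neighbours in gene order were also read. Of 27 mug genes at least 2-fold higher in the deletion at 1.5 h or 3 h without the floor, 21 had a measured neighbour, 28 neighbours in all, with median differences of -0.025 at 3 h and -0.089 at 1.5 h. Of these 28, 2 were themselves 2-fold higher at either time, where 4.17% of all named genes were, both found after their values were seen. They were the hexose transporter gene ght6 beside mug146 (at least 3.85 at 3 h and 3.12 at 1.5 h) and the meiotic cyclin gene crs1 beside mug110 (0.23 at 3 h and 2.66 at 1.5 h). In 5 pairs, mug genes are neighbours of each other, among them mug97 and mug57, where mug57 was at 0.12 at 3 h and -0.14 at 1.5 h.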
